A study of Mus musculus with 9 samples.

Results

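Solute carriers (Slc genes) are membrane proteins that move ions, metals, sugars, amino acids, nucleotides and metabolites across the plasma membrane and the membranes of organelles. On the mouse cDNA arrays studied here they were taken as the clones whose gene symbol begins with Slc and a number, leaving out Slc2a1, Slc3a2 and the Slc1a and Slc7a families. This gave 90 genes of 30 families, carried by 114 clones, out of 7643 genes and 11140 clones with a symbol. A gene with several clones was represented by its brightest one, judged by the mean of log intensities across the arrays. By known site, 54 of the genes code for plasma membrane proteins, 26 for proteins of internal membranes such as the Golgi and the lysosome, and 9 for the mitochondrial carrier family Slc25a. These 9 include Slc25a17, which is peroxisomal. The last gene, Slc9a3r1, is a scaffold protein that binds an exchanger and is not a carrier itself.

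Each of 9 spotted cDNA arrays took RNA of 2 cell states, 1 state in the Cy3 channel and 1 in the Cy5 channel. C2C12, an established mouse myoblast line, gave growing myoblasts (MB), myoblasts arrested in G0 by 48 h of suspension in semi-solid medium (G0 MB) and myotubes after 3 days of differentiation (MT). Fibroblasts arrested in the same way (G0 FB) are named as NIH 3T3 by the labels and as C3H10T1/2 by the study's methods. Arrested over growing myoblasts (G0 MB over MB) had 3 arrays, and 2 each were run for MT over MB, for G0 MB against MT and for G0 MB against G0 FB. Each state is thus 1 line held in culture, with no transgene, and the labels do not say which arrays come from separate cultures, so the p-values measure only the spread between arrays. The treatment field also tells of replating after arrest, and the source field of the G0 MB on 1 fibroblast array begins with NIH 3T3. The titles were followed.

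Carriers of the plasma membrane set what a cell takes up, and carriers of the mitochondrial inner membrane join metabolism in the cytosol to that in the matrix. In skeletal muscle the creatine transporter, the lactate transporter and the calcium exchangers serve the energy supply and contraction of the fibre. Zinc enters the cytosol through the Slc39a proteins and leaves it through the Slc30a proteins. Members of the Slc12a family carry chloride with potassium and set cell volume.

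The direction of the log2 ratios was read in 2 ways. In the first, each array was signed by the dyes that its labels name. In the second, the sign of the authors' value table was read as test over reference, in the order of the titles. For G0 MB over MB both gave the same sign on every array, so the 2 readings share 1 direction there. On array 1 of that comparison, however, the log2 values deposited with the array itself run as Cy3 over Cy5, opposite to the value table. They gave opposite signs on array 1 of MT over MB and on the 4 arrays that set G0 MB against MT or G0 FB, so the direction of those 3 comparisons is not settled, and each is given in both readings. Each array's sign in title order came from the column of the value table that its spot values matched. For 7 arrays this was the column named for the same array, while array 1 of MT over MB matched the column named for array 2 (r = -1 with Cy5 over Cy3) and array 2 that named for array 1 (r = 1). The study's methods describe a dye reversal for each pair of states, but the labels put MT in Cy5 on both arrays of MT over MB. Those 2 arrays correlated at -0.486 over all clones when signed by the labelled dyes and at 0.486 in title order. Of the sarcomere markers, Tpm2, a tropomyosin of muscle, had a log2 ratio of MT over MB of -3.42 and 2.00 by the labelled dyes and of 3.42 and 2.00 in title order. Its ratio of G0 MB over MT was 2.23 and 1.78 by the labelled dyes and -2.23 and -1.78 in title order, with fitted values of 2.00 ± 0.99 (SE, adjusted p = 0.709 in limma) and -2.0 ± 0.41 (adjusted p = 0.0893). Mylpf, a myosin light chain of fast skeletal muscle, had a fitted value of G0 MB over MT of 3.61 ± 3.21 (adjusted p = 0.97) by the labelled dyes and -3.61 ± 1.52 (adjusted p = 0.458) in title order. In G0 MB over MT both markers were thus fitted above 0 by the labelled dyes and under 0 in title order, and neither was called there. In MT over MB Tpm2 was fitted at -0.71 ± 0.99 by the labelled dyes and 2.71 ± 0.41 in title order, where it was called (limma adjusted p = 0.0279). Mylpf was fitted there at 4.01 ± 3.21 and 8.69 ± 1.52 (0.0519 in title order). Titin (Ttn), also a listed marker, went the other way, at 0.44 ± 0.39 and -0.17 ± 0.41. Against G0 FB, Tpm2 in G0 MB gave -2.60 and -2.68 by the labelled dyes and 2.60 and 2.68 in title order.

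Between 36.4% and 61.1% of the clone spots on an array lay above the array's detection limit in at least 1 channel, and the log2 ratios of duplicate spots correlated at 0.85 to 0.935. Arrays 1 and 2 of G0 MB over MB correlated at 0.68 over all clones, and array 3 at 0.202 and 0.204 with them. The repeat arrays correlated at 0.0204 for G0 MB over MT and at 0.214 for the fibroblast comparison.

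Of the 90 carrier genes, 21 had a value on all 9 arrays, 20 on 6 to 8 arrays, 8 on 3 to 5 and 31 on 1 or 2, and 10 had none. In all, 46 genes could be tested in at least 1 comparison and 44 in none. Mitochondrial carriers were the best covered, with 8 of 9 tested somewhere, against 26 of 54 plasma membrane and 12 of 26 internal membrane genes. Among the 44 were 9 of the 16 metal carriers and 4 of the 7 sugar carriers.

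The promoters of 2 carriers are shown, Slc39a7 for its call and Slc16a1 for its uneven ratios. Slc39a7, which releases zinc from the endoplasmic reticulum into the cytosol, was the only carrier to pass the test in any comparison, and did so in title order alone. Slc16a1, the proton-coupled lactate and pyruvate transporter, had the widest spread of ratios between arrays of G0 MB over MB among carriers placed above 1.6-fold there, and the largest fitted value against G0 FB. It was not called in any comparison. The sequences run from 250 bases before to 50 bases after the RefSeq start, 5′ to 3′ on the gene's strand, in GRCm38.p6. The Slc39a7 window is chr17:34031641-34031940 on the minus strand, with capitals at matches to TGCNCNC, a loose form of the core of the metal response element. The Slc16a1 window is chr3:104638414-104638713 on the plus strand, with capitals at the match to CANNTG, the E-box bound by MyoD and Myc among others.
Slc39a7: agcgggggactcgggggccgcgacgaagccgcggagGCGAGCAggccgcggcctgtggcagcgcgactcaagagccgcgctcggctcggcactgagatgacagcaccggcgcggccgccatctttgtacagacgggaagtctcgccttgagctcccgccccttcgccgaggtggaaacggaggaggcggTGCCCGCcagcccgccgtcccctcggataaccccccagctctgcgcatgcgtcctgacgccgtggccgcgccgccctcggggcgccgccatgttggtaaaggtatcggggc
Slc16a1: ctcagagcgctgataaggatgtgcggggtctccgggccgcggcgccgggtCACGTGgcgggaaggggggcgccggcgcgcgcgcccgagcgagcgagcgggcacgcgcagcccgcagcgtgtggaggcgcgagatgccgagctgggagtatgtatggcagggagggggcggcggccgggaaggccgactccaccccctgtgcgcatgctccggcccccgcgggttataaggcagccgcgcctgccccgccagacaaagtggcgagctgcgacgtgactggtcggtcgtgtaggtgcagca
Both strands were searched. The Slc39a7 window held 2 matches to TGCNCNC and 0 to CANNTG, and the Slc16a1 window held 2 and 1. Of all 32851 promoters of this length, 51% held TGCNCNC and 72.3% held CANNTG, beside 62.9% and 74.2% of the 89 promoters found for 66 of the carriers. Matches this frequent mark no site.

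Growing and arrested myoblasts were compared to find which carriers differ between proliferation and reversible arrest. Of the 42 carriers tested in G0 MB over MB, 0 were called at an adjusted p under 0.04 and past 1.6-fold, in either reading, against 0.391% of all clones by the labelled dyes and 2.96% in title order. The 2 readings share every ratio here and differ only in the spread that limma pools over the 9 arrays. Carriers with a p under 0.05 before adjustment numbered 7 (16.7%, against 22.5% of all clones) by the labelled dyes and 9 (21.4%, against 26.1%) in title order. The median log2 ratio of the carriers was -0.23 (15 above 0, 27 below) and that of all 6903 clones was -0.08. The sign of the carriers' median was not stable, since it was 0.03 with a dye term, 0.06 without the detection filter and 0.07 without array 1. Past 1.6-fold and on 1 side of 0 on every array that measured them were 3 carriers above (7.14%, against 13.9% of all clones) and 10 below (23.8%, against 20.5%). These bulk ratios cannot tell a lower share of cells that make a transcript from less of it per cell.

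**Figure D1:**
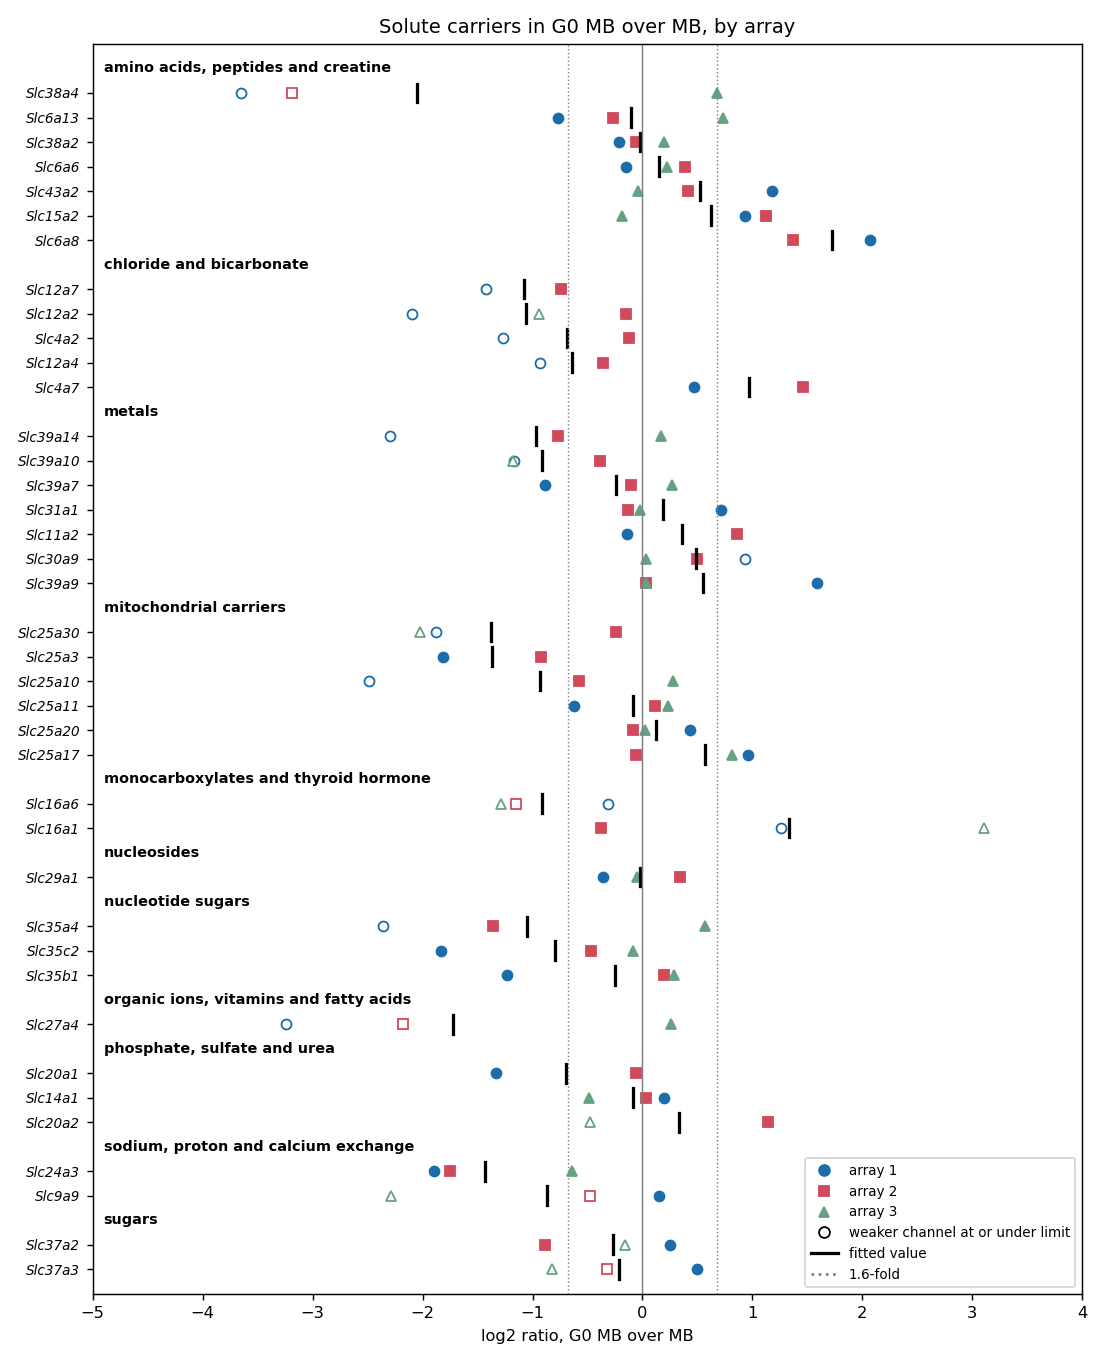
Log2 ratio of G0 MB over MB (x axis) on each of up to 3 arrays for 39 of the 42 carriers tested, grouped by substrate. Points are arrays, open where the weaker channel was at or under the detection limit, black bars are fitted values and dotted lines mark 1.6-fold. Slc24a3 lies below 0 on all 3 arrays and Slc6a8 above 0 on both of its arrays, while Slc38a4 and Slc27a4 lie far below 0 on arrays 1 and 2 and above it on array 3.

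Creatine, amino acid and peptide carriers of the plasma membrane lay on both sides of 0. Slc6a8, which brings creatine into muscle cells, had intensities of 20965 in G0 MB and 4987 in MB on array 1 and of 10731 and 4154 on array 2. Its log2 ratios were 2.07 and 1.37, with no value on array 3. G0 MB was thus the brighter state on both arrays. The fitted value was 1.72 ± 0.53 (SE by the labelled dyes, as throughout this comparison, n = 2 arrays), or 3.3-fold, with a limma adjusted p of 0.15 by the labelled dyes and 0.0666 in title order. Slc15a2, a proton-coupled peptide transporter, gave 0.93, 1.12 and -0.19. Slc43a2, which carries large neutral amino acids, gave 1.18, 0.41 and -0.04. For both, array 3 lay near 0 while the others lay above it. The taurine transporter Slc6a6 (0.15 ± 0.28, SE, n = 3) and the amino acid transporter Slc38a2 (-0.02 ± 0.40) had fitted values close to 0.

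Slc38a4, a transporter of neutral and cationic amino acids, had the lowest fitted value of all carriers, -2.05 ± 0.76 (SE, n = 3, adjusted p = 0.174 by the labelled dyes and 0.132 in title order). Its arrays did not go one way: -3.65, -3.19 and 0.68. Slc27a4, a fatty acid transport protein with acyl-CoA synthetase activity, gave -3.24, -2.18 and 0.26 and a fitted value of -1.72 ± 0.57 (adjusted p = 0.146 and 0.106). On arrays 1 and 2 the G0 MB channel of both genes lay under the detection limit, at background-subtracted intensities of 714 and 777 for Slc38a4 and 879 and 2071 for Slc27a4, so the size of those ratios is uncertain. Without array 3 both genes were called by the labelled dyes, at -3.42 and -2.71 with an adjusted p of 0.0209 each. They were 2 of the 36 carriers then tested (5.56%), against 9.85% of all clones called without that array.

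Without array 3, 6 of 36 carriers were called in title order (16.7%), against 0 of 42 with it. Of all clones 19.1% were called without array 3 and 2.96% with it, so the share of carriers was no higher than that of all clones in either fit. These were Slc38a4, Slc27a4, Slc24a3 (-1.82, adjusted p = 0.0141), Slc6a8 (1.72, 0.021), Slc39a14 (-1.54, 0.0353) and Slc25a3 (-1.37, 0.0357). For Slc39a14 the G0 MB channel of array 1 lay under the limit. Carriers with values on arrays 1 and 2 lay on the same side of 0 in 32 of 47 cases (68.1%, against 77% of all clones). For arrays 1 and 3 it was 13 of 32 (40.6%, against 53.7%), and for arrays 2 and 3 it was 19 of 36 (52.8%, against 53.3%). Neither Slc6a8 nor Slc25a3 had a value on array 3, so their fitted values did not move.

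Among exchangers of sodium, protons and calcium, all 3 tested genes had fitted values below 0 (median -0.87), and none passed the test. Slc24a3, a potassium-dependent sodium and calcium exchanger, had log2 ratios of -1.90, -1.75 and -0.64. MB was the brighter state on all 3 arrays, at 27067 against 7256 on array 1, 26509 against 7892 on array 2 and 11689 against 7481 on array 3, with both channels above the limit. The fitted value was -1.43 ± 0.45 (SE, n = 3), a 2.7-fold lower level, with an adjusted p of 0.135 by the labelled dyes and 0.0594 in title order. A second clone of the same gene gave 2.45, 1.91 and -0.08, so the gene's direction depends on the clone. Slc9a9, an exchanger of endosomes, gave 0.15, -0.48 and -2.29, with G0 MB under the limit on arrays 2 and 3.

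The carriers of chloride and bicarbonate split by gene. Slc12a2, which brings sodium, potassium and chloride into the cell together, had log2 ratios of -2.10, -0.15 and -0.94 and a fitted value of -1.06 ± 0.48 (adjusted p = 0.255 and 0.209). All 3 arrays lay below 0, but the G0 MB channel was under the limit on 2 of them. The potassium and chloride exporters Slc12a7 (-1.42 and -0.74) and Slc12a4 (-0.93 and -0.36) lay below 0 on both arrays that measured them. The chloride and bicarbonate exchanger Slc4a2 gave -1.27 and -0.12, and Slc4a7, which brings sodium and bicarbonate into the cell, gave 0.47 and 1.46. For Slc12a7, Slc12a4 and Slc4a2 the first value, from array 1, had the G0 MB channel under the limit, so its size is uncertain. The median of the 6 genes was -0.67, with 4 below 0 and 2 above, and none was called.

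Lactate transport gave the least even picture. Slc16a1 had log2 ratios of 1.26, -0.38 and 3.11 and a fitted value of 1.33 ± 0.73 (SE, n = 3, adjusted p = 0.297 and 0.277). G0 MB was the brighter state on arrays 1 and 3, where the MB channel lay under the limit and each value rests on 1 spot. MB was slightly brighter on array 2, where 2 spots had both channels above the limit. Basigin (Bsg) and embigin (Emb), which escort Slc16a family transporters to the plasma membrane, lay above 0 on all 3 arrays. Bsg gave 0.78, 1.23 and 0.97, fitted at 1.00 ± 0.29 (adjusted p = 0.126 and 0.0801), and Emb gave 2.87, 3.04 and 1.27, fitted at 2.39 ± 0.47 (0.0915 and 0.051). Neither passed the threshold. Slc16a6, a further member of the family, gave -0.31, -1.15 and -1.29 with G0 MB under the limit on every array. On arrays 1 and 3 the MB intensities of 5264 and 4394 were themselves under the G0 MB channel's limits of 6877 and 5554. No lower bound on the fold can be given for it.

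Metal carriers had a median of 0.19 over 7 genes. The zinc importer Slc39a10 lay below 0 on all arrays, at -1.17, -0.39 and -1.18, with a fitted value of -0.91 ± 0.37 (adjusted p = 0.222 and 0.174) and the G0 MB channel under the limit on 2 arrays. Slc39a14, which imports zinc and iron, gave -2.30, -0.77 and 0.17, with G0 MB under the limit on array 1. The zinc transporter Slc39a9 gave 1.59, 0.03 and 0.03, so that its fitted value of 0.55 rests on array 1. Slc39a7 gave -0.89, -0.10 and 0.27, the copper importer Slc31a1 gave 0.71, -0.13 and -0.02, and the iron importer Slc11a2 gave -0.14 and 0.86. Of 6 tested genes of iron handling (transferrin receptor, ferritin chains and enzymes), 0 were called in either reading. Among them heme oxygenase Hmox1 gave 1.68, 2.01 and 0.88 (1.52 ± 0.34, adjusted p = 0.0855 and 0.0461) and the ferritin heavy chain Fth1 gave 1.10, 0.79 and 1.39 (1.09 ± 0.38, 0.159 and 0.0612). The rest of the list had fitted values below 0: Aco1 at -1.03, Tfrc at -0.55, Ftl1 at -0.35 and Fech at -0.29. Its median was -0.32, so the list did not go one way.

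Mitochondrial carriers, counted with the peroxisomal Slc25a17, had a median log2 ratio of -0.09 over the 7 tested (3 above 0, 4 below). Slc25a17 was among those above 0, so the median without it would be lower. The 25 plasma membrane genes had a median of -0.09 and the 10 genes of internal membranes had -0.26. The equal medians of mitochondrial and plasma membrane genes thus rest on counting Slc25a17, and without it the mitochondrial median would be the lower of the 2. Slc25a3, which imports phosphate for ATP synthesis, was bright on both arrays that measured it. Its intensities were 26493 in G0 MB and 93209 in MB on array 1 and 35181 and 66409 on array 2. The log2 ratios were -1.81 and -0.92, fitted at -1.37 ± 0.41 (SE, n = 2, 2.58-fold lower, adjusted p = 0.144 and 0.0982). Slc25a30, a carrier of little known substrate, gave -1.88, -0.24 and -2.02 (-1.38 ± 0.48, 0.187 and 0.14), with G0 MB under the limit on arrays 1 and 3. The dicarboxylate carrier Slc25a10 gave -2.49, -0.58 and 0.28, where the value of array 1 rests on 1 spot with G0 MB under the limit. Others stayed nearer to 0: the oxoglutarate carrier Slc25a11 at -0.09 ± 0.32, the carnitine carrier Slc25a20 at 0.12 ± 0.28 and the peroxisomal Slc25a17 at 0.57 ± 0.35.

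Nucleotide sugar transporters of the Golgi and endoplasmic reticulum had fitted values below 0 for all 3 tested genes (median -0.80). Slc35c2, which acts in fucosylation, gave -1.83, -0.47 and -0.09, fitted at -0.80 ± 0.38 (adjusted p = 0.25 and 0.206), with both channels above the limit throughout. Slc35a4 gave -2.36 (G0 MB under the limit), -1.36 and 0.57, and Slc35b1 gave -1.23, 0.20 and 0.29. For these 3 genes array 1 was the lowest. The phosphate importer Slc20a1 gave -1.33 and -0.06, while its relative Slc20a2 gave 1.14 and -0.48 (G0 MB under the limit) on another pair of arrays. The nucleoside transporter Slc29a1 stayed near 0 (-0.36, 0.34 and -0.05).

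**Figure D2:**
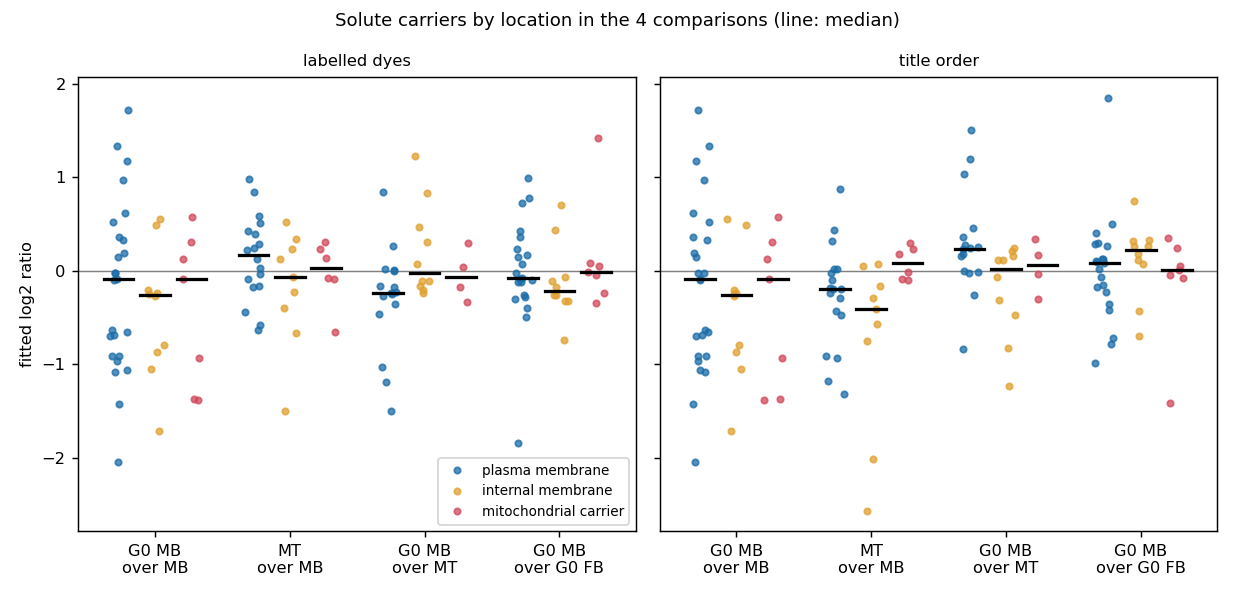
Fitted log2 ratios (y axis) of the carriers tested in each comparison, by location, signed by the labelled dyes (left) and in title order (right). Points are genes and lines are medians. The medians lie between -0.41 and 0.23 throughout. Those of the mitochondrial carriers, counted with the peroxisomal Slc25a17 where it was tested, lie between -0.09 and 0.08.

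Myotubes were set beside growing myoblasts to ask which carriers go with differentiation. Of 33 carriers tested, 0 were called by the labelled dyes, where 0% of all clones were called, and 1 was called in title order (3.03%, against 0.614% of all clones). Before adjustment, 0 carriers had a p under 0.05 by the labelled dyes (1.3% of all clones) and 2 did in title order (6.06%, against 12%). The carriers had a median of 0.12 by the labelled dyes, beside 0.09 for all clones, and of -0.19 in title order, beside -0.05. The 2 arrays placed carriers on the same side of 0 in 15 of 34 cases (44.1%, against 40.2% of all clones) by the labelled dyes and in 19 of 34 (55.9%, against 59.8%) in title order.

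The called gene was Slc39a7. On array 1 its intensities were 14852 in the Cy3 channel and 66725 in the Cy5 channel, and on array 2 they were 34023 and 4345, all above the limits. Both labels name MT as Cy5, which gives log2 ratios of 2.17 and -2.97, a fitted value of -0.40 ± 0.97 and an adjusted p of 1. In title order the ratios were -2.17 and -2.97, fitted at -2.57 ± 0.41 (SE, n = 2), a 5.93-fold lower level in MT with an adjusted p of 0.0346. Its size was large in both readings of each array, and only the sign of array 1 differs. The call was lost in title order when array 2 of G0 MB over MB or either fibroblast array was left out, with the ratio still at -2.57, and when either MT array was left out. On the other 7 arrays the title-order ratios of Slc39a7 lay between -0.89 and 0.45. The arrays of G0 MB over MT gave 0.39 and -0.17, and those of G0 MB over MB gave -0.89, -0.10 and 0.27. A difference of the size fitted for MT over MB was thus not seen between G0 MB and either state.

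Other carriers past 1.6-fold and on 1 side on both arrays in title order were 6 below 0 (with Slc39a7, 21.2% of those tested, against 13.9% of all clones) and 1 above (3.03%, against 9.88%). Slc18a2, which loads monoamines into vesicles, gave -0.52 and -3.52, fitted at -2.02 ± 0.69 (adjusted p = 0.299), most of it from array 2. Slc12a7 gave -2.29 and -0.34, fitted at -1.32 ± 0.58 (0.459), and Slc4a2 gave -0.74 and -1.63, fitted at -1.18 ± 0.97 (0.9). Slc24a3 gave -1.16 and -0.72 (-0.94 ± 0.44, 0.446), and Slc38a2 gave -1.49 and -0.33 (-0.91 ± 0.40, 0.437). The second clone of Slc24a3 did not share this fall, at 0.09 and -0.09. The glucose-6-phosphate transporter Slc37a1 gave -1.09 and -0.41 (-0.75 ± 0.48, 0.741). Slc6a8 was the one gene above 0, at 1.05 and 0.69 (0.87 ± 0.40, 0.47). On array 1 the weaker channel lay under the limit for Slc12a7, Slc4a2, Slc38a2, Slc37a1 and Slc6a8, so the size of those ratios is uncertain. The array 1 values of Slc4a2 and Slc38a2 and the array 2 value of Slc18a2 each rest on 1 spot. By the labelled dyes all 8 genes, Slc39a7 included, had arrays on opposite sides of 0. In that reading only Slc16a1 was past 1.6-fold on 1 side, at 1.04 and 0.63 (0.84 ± 0.89, adjusted p = 1), which is 3.03% of carriers against 3.28% of all clones. Below 0 there were 0, against 3.37%. The array 1 value of Slc16a1 rests on 1 spot, with the weaker channel under the limit.

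**Figure D3:**
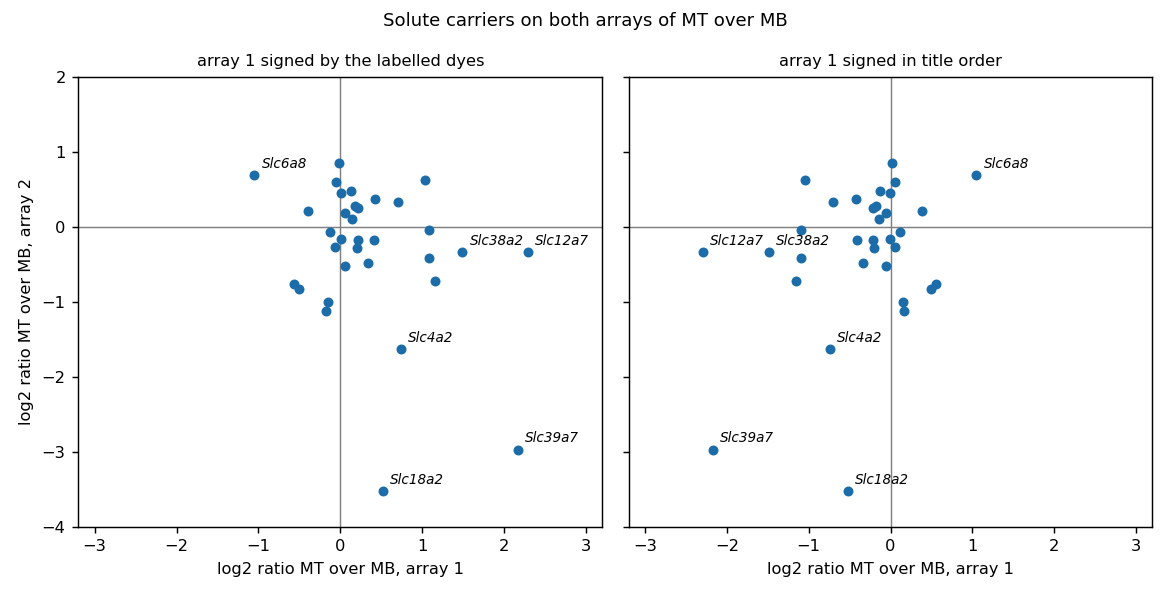
Log2 ratio of MT over MB on array 1 (x axis) and array 2 (y axis) for the 33 carriers tested, with array 1 signed by the labelled dyes (left) and in title order (right). Each point is a gene. Slc39a7 moves from 2.17 to -2.17 on the x axis between the panels and stays at -2.97 on the y axis.

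Mitochondrial carriers had fitted ratios near 0 in MT over MB. The 6 tested had a median of 0.02 by the labelled dyes and 0.08 in title order, with ranges from -0.66 to 0.31 and from -0.10 to 0.30, and 0 were past 1.6-fold in either reading. In title order the 18 plasma membrane genes had a median of -0.20 with a range from -1.32 to 0.87, and the 9 internal membrane genes had a median of -0.41 and a lowest value of -2.57. Slc25a10 gave -0.01 and 0.46, Slc25a3 gave -0.01 and -0.16, and Slc25a11 gave -0.14 and 0.11 in title order. Slc14a1, a urea transporter, was bright on the 7 arrays of the other comparisons, with channels from 63873 to 911033, and had a value on 1 array of MT over MB only. There a single spot gave -10.27, from 448850 in MB and 363 in MT, and it was not tested. On its 3 arrays of G0 MB over MB it stayed between -0.49 and 0.20. When array 1 of MT over MB was left out, the lone value entered the fit, with its spread taken from the other comparisons, and Slc14a1 was then the 1 carrier called of 39 tested, in both readings (2.56%, against 0.607% of all clones).

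Arrested myoblasts were compared with myotubes to set reversible against irreversible arrest. Of 30 carriers tested, 0 were called in either reading, against 0.039% of all clones by the labelled dyes and 0.37% in title order. A p under 0.05 before adjustment was found for 2 carriers by the labelled dyes (6.67%, against 7.95% of all clones) and for 1 in title order (3.33%, against 10.6%). The median was -0.16 by the labelled dyes and 0.16 in title order, beside -0.07 and 0.07 for all clones. The direction is not settled here, and each value turns its sign between the readings. The 2 arrays put carriers on the same side of 0 in 16 of 30 cases (53.3%, against 55.5% of all clones).

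In title order the 3 chloride and bicarbonate carriers tested had fitted values above 0 (median 1.19), and the 2 exchangers Slc24a3 and Slc9a9 had values below it. Slc4a7 gave 0.57 and 1.81, fitted at 1.19 ± 0.51 (SE, n = 2, adjusted p = 0.477), with the weaker channel of array 2 under the limit. Slc4a2 had arrays on opposite sides, at -1.39 and 3.44, with the weaker channel of each under the limit. Slc24a3 gave -0.74 and -0.94 (-0.84 ± 0.44, 0.57), and Slc9a9 gave -0.59 and -1.08 (-0.83 ± 0.66, 0.834). The second clone of Slc24a3 lay on the other side of 0, at 0.11 and 0.46 (0.29 ± 0.55), so the gene's direction depends on the clone here too. Slc24a3 by its brightest clone, Slc9a9 and Slc4a7 were among the carriers past 1.6-fold and on 1 side, of which there were 2 in each direction (6.67%, against 10.3% of all clones above and 10.7% below). By the labelled dyes the same sizes have the other sign.

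Among the rest, the metal carriers were even. All 5 tested had fitted values above 0 in title order, and below it by the labelled dyes, at sizes of 0.11 to 0.46, and none was past 1.6-fold. Mitochondrial carriers ranged from -0.30 to 0.34 in title order. Hmox1 of the iron handling list was called in title order at 2.79 ± 0.40 (2.67 and 2.92, adjusted p = 0.0366) and had an adjusted p of 0.0651 by the labelled dyes. It was the only call among the pumps, ABC transporters, carrier partners and iron handling genes in the 4 comparisons and both readings.

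Arrested myoblasts were set beside arrested fibroblasts to ask which carriers differ between lineages in G0. Of 38 carriers tested, 0 were called in either reading, against 0.0805% of all clones in each. Before adjustment 1 carrier (2.63%) had a p under 0.05 in each reading, where 3.62% of all clones did by the labelled dyes and 5.44% in title order. The median was -0.09 by the labelled dyes and 0.09 in title order, beside 0.01 and -0.01 for all clones. The 2 arrays agreed on the side of 0 for 20 of 39 carriers (51.3%, against 59.7% of all clones). Values below are in title order, and the labelled dyes turn every sign.

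Slc25a1, the mitochondrial citrate carrier that feeds lipid synthesis, was the gene with an unadjusted p under 0.05. Its log2 ratios were -1.53 and -1.30, fitted at -1.42 ± 0.48 (SE, n = 2, 2.67-fold lower in G0 MB, adjusted p = 0.808), and 1.42 ± 0.41 by the labelled dyes (adjusted p = 1). Intensities were 6178 and 2137 on array 1 and 11656 and 4738 on array 2, the last under the limit. Slc16a1 gave 3.13 and 0.58, fitted at 1.85 ± 0.91 (adjusted p = 0.997), with the weaker channel of array 1, at 422, under the limit. Both arrays had the same sign but differed in size.

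The carriers past 1.6-fold and on 1 side of 0 on both arrays were 1 above (2.63%, against 6.07% of all clones), which was Slc16a1, and 5 below (13.2%, against 10.4%). Beside Slc25a1, those below were the phosphate importer Slc20a2 (-1.35 and -0.62), Slc4a2 (-1.24 and -0.32), Slc6a8 (-1.0 and -0.44) and Slc37a1 (-0.37 and -1.02). These 4 had an adjusted p of 0.997 each, and for Slc20a2 and Slc37a1 the weaker channel of array 2 lay under the limit. The other mitochondrial carriers stayed between -0.08 and 0.35, among them Slc25a20 at 0.38 and 0.32 and Slc25a3 at -0.07 and -0.10. The comparisons share the G0 MB or the MB state, so the values of a gene in them are not independent.

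Clones of 1 gene did not always go the same way. For 5 carriers more than 1 clone was tested in the same comparison, which made 16 pairs of gene and comparison, and in 8 of them the clones had fitted values on both sides of 0. In G0 MB over MB the brighter clone of Slc24a3 had -1.43 ± 0.36 and the other 1.43 ± 0.45 in title order (adjusted p = 0.0594 and 0.0996). In MT over MB the brightest clone of the taurine transporter Slc6a6 had -0.20 ± 0.33, while its other clones had -0.99 ± 0.40 and -2.67 ± 0.82. For Slc9a9 the values were -0.16 ± 0.66 and 1.92 ± 0.53. The clones of Slc29a1 were closer in G0 MB over MB, at -0.02 and -0.13. Whether the clones carry the same transcript was not tested.

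**Figure D4:**
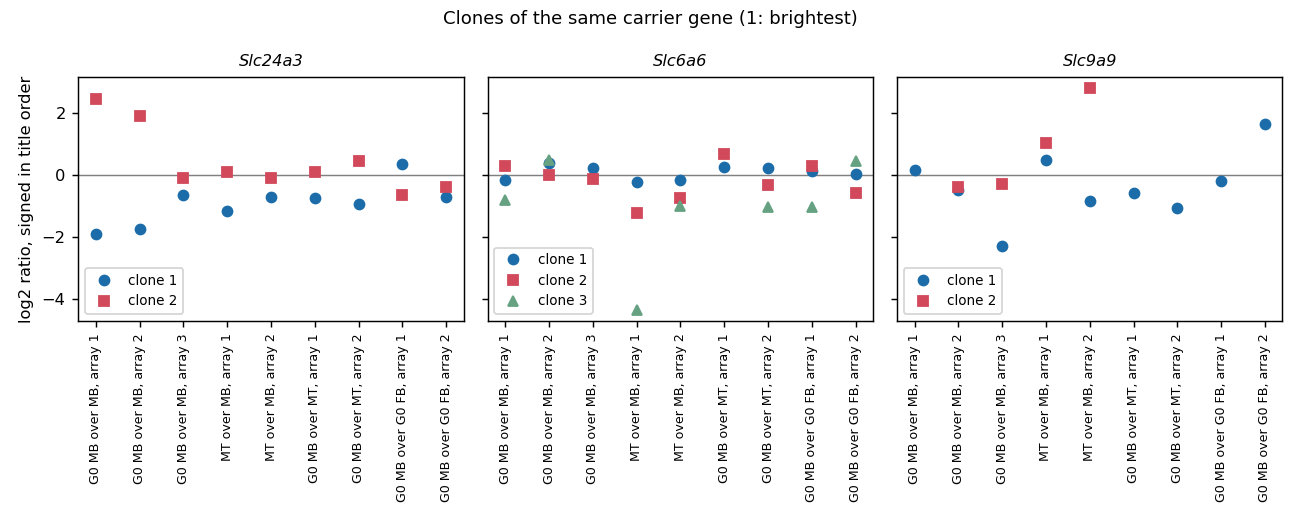
Log2 ratio in title order (y axis) of each tested clone of Slc24a3, Slc6a6 and Slc9a9 on each array (x axis), with clone 1 the brightest. Each point is 1 clone on 1 array. Clones 1 and 2 of Slc24a3 lie at -1.90 and 2.45 on array 1 of G0 MB over MB, and clone 3 of Slc6a6 lies at -4.35 on array 1 of MT over MB.

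Other transport genes gave few calls. Of the 10 sodium and calcium pump genes, 7 were on the arrays and 3 were tested in G0 MB over MB, at fitted values from -0.13 to 0.36. Of 17 ABC transporters, 5 were tested there, from -0.73 to 0.92, and of 10 carrier partners 6 were tested, from -0.99 to 2.39. Sarcomere markers were thin on these arrays, with 3 of 14 present. In MT over MB their median was 2.71 in title order, with 1 called (Tpm2, adjusted p = 0.0279), and 0.44 by the labelled dyes with 0 called. Of 7 fibroblast markers 4 were present, and against G0 FB the 3 tested had a median of 0.52 in title order, which is -0.52 with the dyes as labelled, with 0 called. They lay on both sides of 0, with Col1a1 at -2.72, Col1a2 at 0.52 and decorin (Dcn) at 1.49 in title order. In G0 MB over MB 1 of them, Dcn, was called in title order at 2.72 ± 0.45 (adjusted p = 0.0306).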

How the data were processed

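The 9 arrays and their groups were taken from the labels. The authors quantified the Cy3 and Cy5 intensities with ArrayVision, subtracted the background and normalized them by LOWESS before deposit, and the log2 values deposited by the authors are ratios of these intensities. Versions are not given in the sources used here. Since the deposited intensities were already corrected, neither step was repeated. Spots above the detection limit in neither channel were left out, duplicates were averaged, and ratios were signed by the labelled dyes or in title order. Limma 3.58.1 in R 4.3.3 (lmFit, eBayes) fitted 1 coefficient per comparison to all 9 arrays, for clones with at least 2 arrays of a comparison and 2 residual degrees of freedom. Benjamini and Hochberg's adjustment ran over all clones of a comparison. Calls needed an adjusted p under 0.04 and a change past 1.6-fold (log2 0.68). Precision is limited by how few arrays there were. The fit was tested on simulated data.

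Carriers named with values were those called, and those past 1.6-fold on 1 side of 0 on all arrays, up to 25 for G0 MB over MB and 12 for others. Further carriers are given by substrate. The values of 3 tested carriers are not reported here by name and enter only the counts and medians. The carriers, lists and tests were chosen with earlier results of these data known. For Slc16a6, where G0 MB lay under the limit on every array, the size of the ratio is uncertain and no bound is given. Alternatives were median centring, scaling, separate fits, a dye term, a replicate block, stricter and no detection filters, a second loess (span 0.3), the mean of a gene's clones, the authors' value table, both MT arrays turned, and leaving out each array. Python 3.11.15, pandas 2.3.3 and numpy 2.4.6 made the tables.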

Additional observations from a re-analysis of the deposited data

How the results depend on the processing

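The median log2 ratio of the carriers in G0 MB over MB, -0.23, was -0.11 with scaled arrays, -0.05 with both channels above the limit, 0.03 with a dye term, -0.16 with the mean of a gene's clones, -0.07 after median centring, 0.06 without a detection filter, -0.08 after a second loess and -0.1 with separate fits, in both readings. It was 0.06 in the authors' value table and ran from -0.23 to 0.07 when single arrays were left out. With both channels above the limit, 3 carriers were called there in title order (Slc24a3 at -1.38, Slc25a3 at -1.37 and Slc6a8 at 1.62), or 12.5% of 24 tested against 14.1% of all clones. Leaving out single arrays gave 0 to 2 calls by the labelled dyes and 0 to 6 in title order, the highest each time without array 3, where 9.85% and 19.1% of all clones were called. Slc12a7 in that comparison turned to 0.08 without a detection filter and in the value table. The causes of these changes were not tested.

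In MT over MB title order gave 1 call (Slc39a7), and a dye term, no detection filter, separate fits and the value table gave 0, with Slc39a7 at -2.57 in each. Leaving out single arrays gave 0 to 1 calls in both readings, and from 0 to 0.607% of all clones by the labelled dyes and from 0.358 to 0.974% in title order. It gave medians from -0.26 to 0.18 by the labelled dyes and from -0.26 to -0.18 in title order. The title-order median was -0.1 with both channels above the limit and after a second loess, and 0.19 with both arrays turned. Turned arrays gave Slc39a7 2.57, Slc18a2 2.02, Slc12a7 1.32, Slc4a2 1.18, Slc24a3 0.94, Slc38a2 0.91, Slc37a1 0.75 and Slc6a8 -0.87. Slc16a1 by the labelled dyes was -0.38 with a dye term.

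In G0 MB over MT title order moved the median of -0.16 to 0.16, and leaving out single arrays gave -0.24 to 0.04 by the labelled dyes and -0.04 to 0.24 in title order, with 0 calls. In G0 MB over G0 FB the title-order median was 0.09, and the ranges were -0.18 to 0.03 and -0.03 to 0.18, with 0 calls. Of 931 alternative values for the 55 named values, 904 kept their direction and their side of the threshold. This count was partly fixed by the choice of genes and does not measure robustness. Named values lay on the same side of 0 on every array of their comparison, so leaving out an array could not turn them. Leaving out an array of another comparison left the fitted ratio in place. Apart from Slc39a7 in title order, no named value was called in the main fit, so most could only stay uncalled or gain a call.

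The replicate numbers share only a number between comparisons. Deviations of same-numbered arrays correlated from -0.389 to 0.263. With the replicate block 0 carriers were called by the labelled dyes, 1 (Slc39a7) was called in title order in MT over MB, and no other call changed. The block gave medians of 0.04 by the labelled dyes in MT over MB and of -0.19 and 0.12 in G0 MB over MT, and left the other medians in place. Channels under the detection limit, on some arrays for 19 and on all for 1 of the 42 carriers in G0 MB over MB, limit the size of the ratios.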

Other observations

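The 44 carriers that entered no test included several with values in G0 MB over MB. The glucose transporter Slc2a3 gave 0.84 (MB under the limit) and 2.20 on arrays 1 and 2, and the vitamin C transporter Slc23a2 gave 0.81 and 1.44. G0 MB was the brighter state on both arrays for each. The zinc transporter Slc30a7 of the Golgi gave -1.39 and -1.63, while its relative Slc30a4 gave 0.92 and 0.50. The nucleoside transporter Slc29a2 gave -0.66 and -2.18 and the scaffold Slc9a3r1 gave -1.63 and -2.53 on arrays 2 and 3, with G0 MB under the limit in all 4 cases.

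Single values stood far apart in 2 genes. The organic anion transporter Slc22a7 gave 7.89 on array 1 and -2.09 on array 3, each with a channel under the limit, and the sodium and bicarbonate transporter Slc4a4 gave 6.53 on array 1, with MB under the limit, and -0.04 on array 2. Slc2a4, the insulin-responsive glucose transporter of muscle, had a value on 1 array only, 3.00 in MT over MB on array 2, with MB under the limit. The iron exporter Slc40a1 likewise had 1 value, 1.6 in G0 MB over MB on array 2, with MB under the limit.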
